A study of Mus musculus with 4 samples.

Results

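The genes described here are 10 glutathione S-transferases of the mouse, of the 30406 genes that both gene references of the study list: Gsta3, Gsta4, Gstm1, Gstm2, Gsto1, Gsto2, Gstp1, Gstp2, Gstt1 and Mgst1. They were taken as a named list and matched by Ensembl identifier, with Gstp1 and Gstp2, a pair of near-identical copies, read side by side. The study profiled single cells of the extrahepatic bile duct by droplet sequencing, in which each captured molecule near the 3′ end of a transcript is counted once by its molecular identifier (UMI). It compared 1 GOF library, labelled Prom1_BcatGOF and described as a mosaic activation (gain of function) of Ctnnb1, which encodes beta-catenin, with 3 WT libraries; no library was treated. The labels give no construct, strain, age or sex, and do not say how many ducts were pooled or whether each WT library is its own animal; all p-values therefore measure only the spread between these samples. Ducts were cut free under a microscope, digested with proteases and filtered before capture.

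After filtering, 9208 GOF cells and 4328, 2413 and 2056 cells of WT libraries 1, 2 and 3 were kept, and each cell was assigned to a class by marker genes, none of them a transferase. Classes are called "-like" because they rest on these markers alone. Epithelial-like cells, gated on genes such as Epcam and Krt19, numbered 5153 for GOF and 3016, 1565 and 1101 for WT, with 64286370 UMIs against 35531958, 12214794 and 6347506. The label of the GOF library was checked with 10 feedback targets of Wnt signalling in epithelial-like cells thinned to 2000 UMIs. Of these cells, 55.0% in GOF had a UMI of at least 1 target, against 8.86%, 14.6% and 15.1% in WT. Here and below, thinned values leave out cells with fewer than 2000 UMIs. The median depth of epithelial-like cells was 7727 UMIs in GOF and 7588, 3569 and 2595 UMIs in WT. Levels are given as CPM, the UMIs of a gene scaled to a total of 1000000 UMIs for its class and library. Clusters built without the gate separated GOF from WT cells in some classes but not in all. The 4 clusters that each held at least 10% of the GOF epithelial-like cells held 83.7% of those cells and 0% of the WT ones. At most 0.435% of the WT fibroblast-like, macrophage-like, mesothelial-like, neutrophil-like and tuft-like cells lay in the clusters of the GOF ones. For blood endothelial-like, lymphatic endothelial-like and monocyte-like cells this share was 100%, 100% and 89.7%. The GOF matrix was written by another software version, with a larger gene reference, than the WT matrices, so genotype and counting cannot be told apart in any GOF comparison.

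Glutathione S-transferases join the tripeptide glutathione to reactive, electrophilic compounds and so make them soluble for export. The cytosolic enzymes fall into classes named alpha (Gsta), mu (Gstm), omega (Gsto), pi (Gstp) and theta (Gstt), while Mgst1 sits in membranes of the endoplasmic reticulum and mitochondria. In rat liver the pi-class enzyme is a classical marker of bile duct cells and of preneoplastic foci, and several members are targets of the oxidative stress factor Nrf2.

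Because Gstp1 and Gstp2 lie 2299 bases apart on the minus strand of chromosome 19 (GRCm38, 4035407 to 4037985 and 4040285 to 4046023), their transcripts are shown first. Their coding sequences, both 633 bases long in the GENCODE M21 transcripts, differed at 12 bases (98.1% identical). The stretch from coding base 223 to 342 is shown because it holds the 6 differences nearest to the 3′ end, which are in capitals; written from Gstp1 to Gstp2 with positions counted from the start codon, they are A268G, T314G, C319A, C321G, C329G and C330A.
Gstp1: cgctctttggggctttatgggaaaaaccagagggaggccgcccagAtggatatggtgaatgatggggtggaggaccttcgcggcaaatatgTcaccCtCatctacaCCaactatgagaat
Gstp2: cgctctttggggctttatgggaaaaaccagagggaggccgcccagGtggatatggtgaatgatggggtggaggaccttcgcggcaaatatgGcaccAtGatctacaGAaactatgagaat
From there to the transcript's end the copies were the same, over the last 369 bases, of which 66 follow the stop codon. The last 60 coding bases, identical in both, are the kind of sequence that a 3′ library reads.
Gstp1 and Gstp2: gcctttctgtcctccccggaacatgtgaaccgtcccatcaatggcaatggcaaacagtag
Of all 50-base windows of the Gstp1 transcript 62.3% also occurred in Gstp2, so a count on either gene depends on how reads that match both were assigned, a step not given in the sources used here. Both gene references list the same 27 genes of the transferase family.

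The promoters of the pair are shown because the copies were lower together in GOF epithelium. Each holds the AP-1 motif TGANTCA, searched on both strands and written in capitals, in RefSeq's 300-base window of GRCm38.p6 (250 bases before to 50 after the start), at chr19:4037863-4038162 for Gstp1 and chr19:4042172-4042471 for Gstp2, both on the minus strand.
Gstp1 promoter: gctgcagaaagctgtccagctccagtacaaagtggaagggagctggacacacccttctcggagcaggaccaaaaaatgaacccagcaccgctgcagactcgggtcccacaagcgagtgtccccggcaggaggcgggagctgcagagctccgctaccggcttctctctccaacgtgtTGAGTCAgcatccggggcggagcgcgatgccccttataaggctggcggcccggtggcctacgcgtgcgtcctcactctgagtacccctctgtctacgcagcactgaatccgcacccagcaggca
Gstp2 promoter: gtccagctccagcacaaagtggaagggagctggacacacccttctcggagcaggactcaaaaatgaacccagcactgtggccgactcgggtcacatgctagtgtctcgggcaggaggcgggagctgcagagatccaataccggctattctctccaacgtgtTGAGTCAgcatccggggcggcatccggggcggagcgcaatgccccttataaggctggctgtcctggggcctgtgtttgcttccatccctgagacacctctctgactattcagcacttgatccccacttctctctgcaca
Among 32851 promoters of this length 7.81% held TGANTCA. The core of the antioxidant response element, TGACNNNGC, was found in the windows of Gsta3 and Mgst1 and in 12.4% of all promoters. The Tcf/Lef motif ATCAAAG was in none of the windows of the 9 members that matched the table, and in 3.73% of all promoters. A match of letters is a description and not a binding site.

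In epithelial-like cells of the GOF library the pi-class genes Gstp1 and Gstp2 and the membrane enzyme Mgst1 were lower than in WT, and Gsto2, an omega-class enzyme with dehydroascorbate reductase activity, was higher. With edgeR's quasi-likelihood test these 4 of the 10 members passed an adjusted p of 0.05, 1 higher and 3 lower, where 11.6% of all 15801 genes tested were called higher and 3.98% lower. Of the 10 members, 8 had a negative log2 fold change, and their median was -0.94, beside 0.0052 over all genes tested. Without WT library 2 the calls over all genes numbered 998 in place of 2463. Fold changes include TMM scaling and CPM values do not; without the scaling every epithelial log2 fold change would be 0.37 larger, and the calls over all genes would be 2965 higher and 297 lower in place of 1834 and 629. No member changed sign under either scaling, nor with factors taken from genes with little intron, which gave 3229 higher and 275 lower.

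Gstp1 had 36.2 CPM in the GOF library, against 646, 1361 and 1406 CPM in the WT libraries. The GOF value lies far below every WT value, and WT library 1 lies apart from the other WT libraries. The fitted log2 fold change was -5.34 (SE 0.66, adjusted p = 0.00811). Gstp2 counts were low throughout, with 0.933 CPM (60 UMIs) in the GOF library and 8.5, 12.3 and 13.5 CPM in the WT libraries. The groups did not overlap, and the log2 fold change was -3.96 (SE 0.45, adjusted p = 0.00625). Since reads of the copies can be exchanged, the genes were also summed: the log2 fold change of the sum was -5.32 (SE 0.66, adjusted p = 0.00811), and -4.57 (adjusted p = 0.00993) when Gstp3 was added. Thinned to 2000 UMIs, 6.6% of GOF epithelial-like cells had a Gstp1 UMI (95% exact interval 5.89% to 7.38%), against 65.4%, 84.1% and 83.7% of WT cells. In lymphocyte-like cells (T, NK and innate lymphoid markers) these shares were 3.21% in the GOF library, with 5 of 156 cells, and 31.8% in WT library 1, with 7 of 22; the median depths were 7727 UMIs in GOF epithelial-like and 2623.5 in GOF lymphocyte-like cells.

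Mgst1 measured 551 CPM in the GOF library and 1076, 909 and 890 CPM in the WT libraries. All WT values exceed the GOF value, and the log2 fold change was -1.16 (SE 0.26, adjusted p = 0.0372). This call was lost without WT library 2 (adjusted p = 0.105), with no scaling (0.0673) and with factors from genes of little intron (0.0813).

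Gsto2 had 109 CPM (7011 UMIs) in the GOF library, against 0.591, 1.72 and 1.58 CPM in the WT libraries, which held 21, 21 and 10 UMIs. WT levels were near 0 in all 3 libraries, and the log2 fold change was 6.24 (SE 0.47, adjusted p = 0.00228). After thinning, 13.9% of GOF epithelial-like cells had a Gsto2 UMI, against 0.105%, 0.0727% and 0.128% of WT cells. GOF lymphocyte-like cells reached 1.28% (2 of 156). Gsto1, its neighbour and the omega enzyme also active on arsenic compounds, had 677 CPM in the GOF library and 339, 279 and 241 CPM in the WT libraries. The GOF value was again the highest, yet the test missed the threshold (log2 fold change 0.88, SE 0.24, adjusted p = 0.0624), and was passed under 6 alternatives, with DESeq2 (adjusted p = 0.00799), limma-voom (0.0342), no filter on low counts (0.0481), no scaling (0.0202), factors from genes of little intron (0.0183) and without WT library 1 (0.0294).

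The omega genes lie in tandem on the plus strand of chromosome 19 (47854970 to 47864790 and 47865534 to 47886324), 743 bases apart, and the annotation places Cfap43 across both on the opposite strand. Cfap43, a gene of motile cilia, had 62.1 CPM in GOF epithelial-like cells, against 0.507, 0.819 and 0.473 CPM in WT. Gsto2 spans 18442 bases of intron. Whether intronic or antisense reads were counted is not given in the sources used here, and the part of either in the Gsto2 difference was not tested. Of the UMIs on the omega pair, Gsto2 took 13.9% in GOF epithelial-like cells (95% exact interval 13.6% to 14.2%), against 0.174%, 0.612% and 0.649% in WT. Within the GOF library its share was 10.9% in fibroblast-like (7.23% to 15.5%), 13.3% in mesothelial-like (9.41% to 18.0%) and 3.18% in macrophage-like cells (2.16% to 4.52%). WT cells of these classes held 0 to 4 Gsto2 UMIs per library: the WT shares were 8.33%, 3.92% and 0% in fibroblast-like, 10.5%, 33.3% and 0% in mesothelial-like and 0%, 1.02% and 3.03% in macrophage-like cells, with upper exact bounds of up to 65.1%. In each of these classes the GOF interval overlapped those of all 3 WT libraries. Intervals cover counting error only.

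The other members were not called in epithelium. Gsta3, an alpha-class enzyme, had 419 CPM in the GOF library and 697, 610 and 785 CPM in WT (log2 fold change -1.11, SE 0.28, adjusted p = 0.0527), below all WT values; it passed with DESeq2 (adjusted p = 0.0018) and in 4 other alternatives. Gsta4, which clears the lipid peroxidation product 4-hydroxynonenal, had 847 CPM in GOF, against 1790, 1014 and 967 CPM in WT. Its spread among WT libraries was wide, and its log2 fold change of -0.94 (SE 0.43, adjusted p = 0.184) was not called. The mu-class genes Gstm1 (184 CPM in GOF, against 215, 206 and 313 CPM) and Gstm2 (44.7 CPM, against 49.4, 58.7 and 73.3 CPM) and the theta gene Gstt1 (92.4 CPM, against 168, 155 and 91.7 CPM) had adjusted p of 0.166, 0.114 and 0.12. For Gstt1 the GOF value lies within the WT range; without WT library 3 it was called lower (log2 fold change -1.16, adjusted p = 0.0208). On simulated sums of this design the test recovered 30% of genes changed 2-fold and 92% of genes changed 4-fold.

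**Figure D1:**
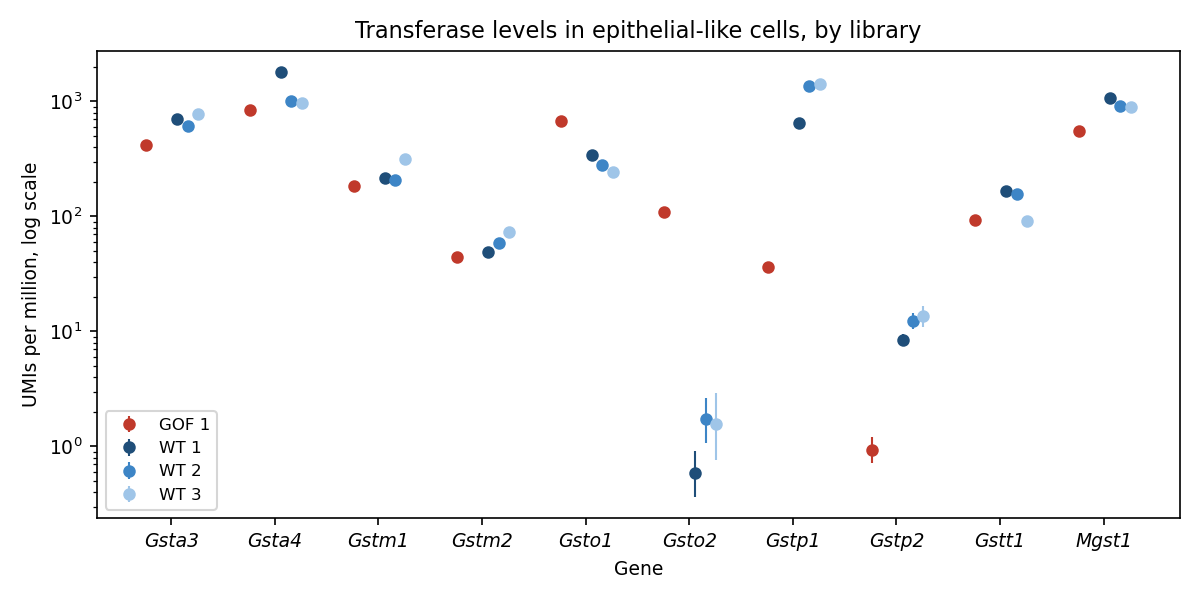
CPM (spelled out on the log axis) of the 10 transferase genes in epithelial-like cells, 1 point per library with its 95% Poisson interval, the GOF library left of WT libraries 1, 2 and 3. Gstp1 and Gstp2 are lower in GOF than in every WT library, with 36.2 against 646 to 1406 for Gstp1, and Gsto2 is higher, with 109 against at most 1.72.

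Markers of other cell types were read in the epithelial-like sums. The 6 mesothelial markers summed to 135 CPM in the GOF library, against 29.1, 24.4 and 12.4 CPM in WT, with 1 marker at 0 in WT library 3 and none in the others. The 7 tuft markers summed to 146 CPM, against 44.2, 54.1 and 62.1 CPM, with none at 0. The 8 hepatocyte markers summed to 2303 CPM against 971, 2410 and 1928 CPM, with 1 at 0 in GOF and 3, 2 and 5 at 0 in WT. The part of these in the differences above was not tested. The median mitochondrial share per cell was 3.01% in the GOF library, against 10.1%, 11.5% and 14.8% in WT.

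Gstp1 was tested in the 9 classes with at least 20 cells per library and was called lower in the GOF library in 8. Across these classes the GOF levels ran from 3.92 to 53.1 CPM, and the WT levels from 51.8 to 1406 CPM. The GOF level lay below all 3 WT levels in each class. The classes come from the same 4 libraries and are not separate replicates, and the share of all genes with this order was not counted. The log2 fold changes were -4.83 in tuft-like, -4.00 in mesothelial-like, -4.29 in blood endothelial-like, -5.52 in lymphatic endothelial-like, -4.68 in macrophage-like, -3.56 in monocyte-like and -4.18 in neutrophil-like cells. Calls of any gene as lower made up 10.5%, 2.88%, 5.5%, 5.22%, 2.01%, 1.02% and 0.724% of the genes tested in these classes. The call in neutrophil-like cells was lost without WT library 1 (adjusted p = 0.238) or 2 (0.296), that in monocyte-like cells under a stricter gate (0.0967), and that in mesothelial-like cells without WT library 2 (0.15). Of the GOF monocyte-like cells, 69.8% lay in a macrophage cluster, while 100%, 71.4% and 93.3% of the WT ones lay in a monocyte cluster. That monocyte cluster also held 95.2% of the neutrophil-like cells of WT library 3. The part of this in the calls of these classes was not tested. In lymphocyte-like cells, which were too few to test, Gstp1 stood at 22.3 CPM in the GOF library, against 217, 440 and 760 CPM in WT.

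In fibroblast-like cells, which build the connective tissue of the duct wall, 0 of the 8 members tested were called by edgeR, where 2.54% of all genes were; 3 members had an unadjusted p under 0.05. DESeq2 and limma-voom each called 1 of them, Gstp1. It had 23.6 CPM in the GOF library and 160, 660 and 537 CPM in WT, below all of them, with a log2 fold change of -4.45 (SE 1.00, adjusted p = 0.0623); it was called without any 1 of the WT libraries (adjusted p = 5.23e-06, 0.00805 and 0.0246). WT library 2 holds 71.3% of its fibroblast-like cells in the same unnamed cluster as the WT mesothelial-like cells.

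The effect on Gstp1 was not shown to differ between epithelial-like and fibroblast-like cells. In a test of the difference itself with the library as a block, its log2 difference was -0.99 (SE 0.56, adjusted p = 1). None of the 10 members was called by edgeR in this test, against 0.505% of all genes, with 2 at an unadjusted p under 0.05: Gsto2 (4.39, adjusted p = 0.215) and Gstp2 (-4.84, adjusted p = 0.0804). DESeq2 and limma-voom also called 0. Without 1 WT library 1 member was called, Gstp2 without library 1 or 2 (adjusted p = 0.0188 and 0.0114) and Gsto2 without library 3 (0.0494).

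Mesothelial-like cells, which form the outer lining of the duct, were where the copies parted. Gstp1 had 53.1 CPM (327 UMIs) in the GOF library, against 298, 811 and 1276 CPM in WT. Gstp2 had 71.8 CPM (442 UMIs) in the GOF library and no UMI in any WT library, among 1773243 UMIs of the class. Gstp2 was therefore higher in GOF where Gstp1 was lower. Against a floor of 3 UMIs over the WT cells together, or 1.69 CPM, Gstp2 was at least 42.4-fold higher; it passed the filter on low counts through the GOF library alone, so no p is given for it. Gstp1 had a log2 fold change of -4.00 (SE 0.70, adjusted p = 0.00132). Of the UMIs on the pair, Gstp2 took 57.5% in GOF mesothelial-like cells (95% exact interval 53.9% to 61.0%). In WT mesothelial-like cells it took 0 of 293, 401 and 377, with upper exact bounds of 1.25%, 0.916% and 0.974%.

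This share was higher in GOF mesothelial-like cells than in the other large classes: it was 2.51% in GOF epithelial-like (60 UMIs, beside 2328 of Gstp1) and 8.93% in GOF fibroblast-like cells (5.08% to 14.3%), and 1.3%, 0.894% and 0.954% in WT epithelial-like cells. After thinning, 11.6% of GOF mesothelial-like cells had a Gstp2 UMI (42 of 362; 31% unthinned, at a median of 11800.5 UMIs), against 0 of 105, 60 and 43 WT cells, which allows shares of up to 2.86%, 5.00% and 6.98%. GOF lymphocyte-like cells had 0 of 156, which allows up to 1.92%. The sum of the copies was lower in GOF mesothelium, with 120 CPM after TMM scaling, against 306, 863 and 1296 CPM, and a log2 fold change of -2.76 (SE 0.65, adjusted p = 0.0098).

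**Figure D2:**
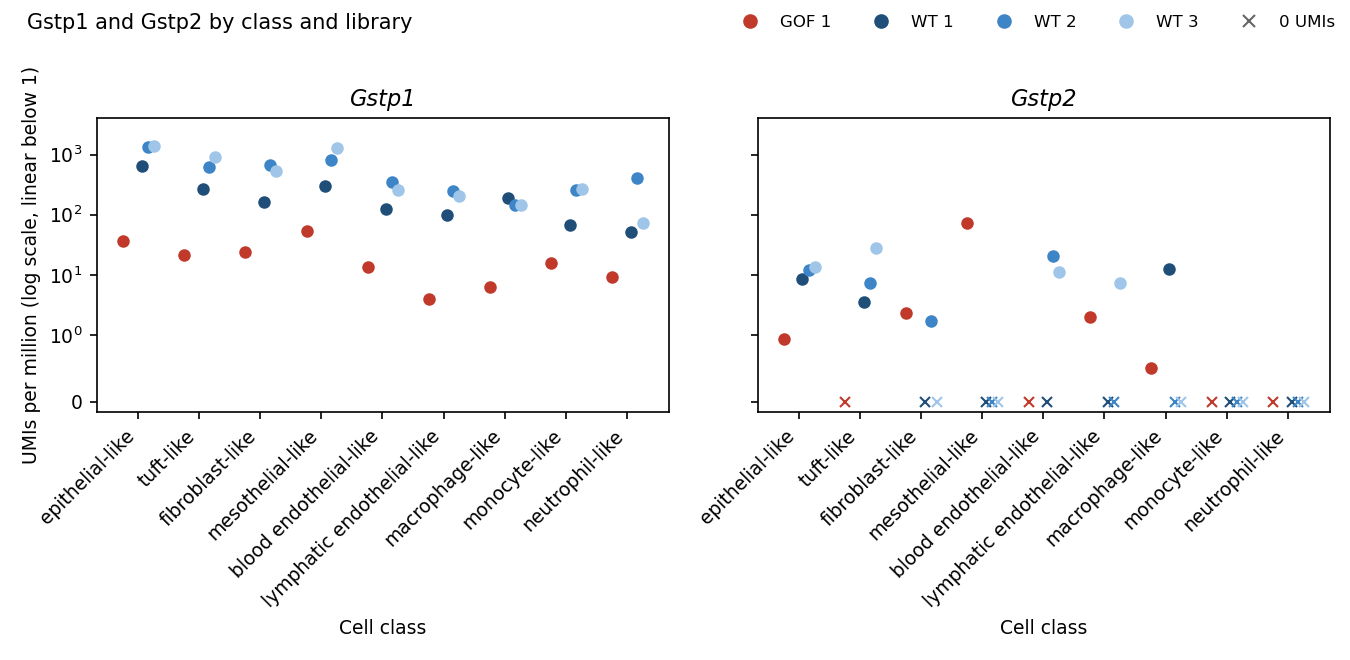
CPM (spelled out on the axis) of Gstp1 (left panel) and Gstp2 (right panel) in 9 cell classes, 1 point per library with the GOF library left of WT libraries 1, 2 and 3; the axis is logarithmic above 1 and crosses mark 0 UMIs. Gstp1 is lowest in GOF in every class, while Gstp2 reaches 71.8 in GOF mesothelial-like cells and has 0 UMIs in the 3 WT libraries there.

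Gsta3 and Gstt1 were also lower in GOF mesothelium. Gsta3 had 27.4 CPM in the GOF library, against 310, 111 and 203 CPM in WT (log2 fold change -3.04, SE 0.52, adjusted p = 0.00106). Gstt1, a theta enzyme that acts on small halogenated compounds, had 83.1 CPM, against 242, 220 and 159 CPM (log2 fold change -1.44, SE 0.38, adjusted p = 0.0191). Neither overlapped between the groups. Of 9 members tested there, Gstp2 included, 3 were called lower, Gstp1 among them, where 9.41% of 9247 genes were called higher and 2.88% lower. Gstp2 came out as higher, but it entered the test through the GOF library alone and is not counted as a call. Without WT library 2 none of the 3 lower calls held, with adjusted p of 0.0674 for Gsta3, 0.15 for Gstp1 and 0.22 for Gstt1. The epithelial marker list, whose keratins mesothelium also expresses, summed to 4454 CPM in the GOF mesothelial-like sums, against 3378, 3532 and 2369 CPM in WT, and tuft markers to 144 CPM against 21.4, 32.3 and 23.7 CPM; their part in the result was not tested. Of the GOF cells of this class, 89% lay in 1 cluster, while the WT cells except 1 lay in another that stayed unnamed.

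The GOF effects differed between epithelial-like and mesothelial-like cells for Gsta3, Gsto2 and Gstp1, where 1.81% of all genes were higher and 1.17% lower in this test. The log2 difference was 1.94 for Gsta3 (SE 0.36, adjusted p = 8.94e-06), which was lower by more in mesothelium, and -1.40 for Gstp1 (SE 0.34, adjusted p = 0.0023), which was lower by more in epithelium. For Gsto2 it was 5.74 (SE 1.02, adjusted p = 2.48e-06), from 109 CPM in GOF against at most 1.72 CPM in WT epithelium, and 5.68 CPM in GOF against 2.03, 8.09 and 0 CPM in WT mesothelium. Gstp2, with no UMI in WT mesothelium, is described by its counts above and not by this test. The calls of Gstp1 and Gsto2 were lost without WT library 2 (adjusted p = 0.0755 and 0.0853). Between epithelial-like and tuft-like cells 1 of 10 members was called higher, Gsto2, beside 0.266% of all genes, and its direction turned without WT library 1 (-3.07, adjusted p = 1).

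In tuft-like cells, chemosensory cells of the duct lining, 4 of 6 members tested were lower in GOF, beside 10.5% of genes called lower. Mgst1 had 334 CPM in the GOF library and 353, 673 and 686 CPM in WT (log2 fold change -0.90, adjusted p = 0.0342). Gstm1 had 20.5 CPM, against 67.1, 44.4 and 140 CPM (log2 fold change -1.99, adjusted p = 0.00214), and Gsta4 33.8 CPM, against 91.8, 44.4 and 84 CPM (log2 fold change -1.33, adjusted p = 0.0195). These 3 calls rested on small sums of 144 GOF and 48, 37 and 29 WT cells. Those of Gsta4 and Gstm1 were lost without WT library 1 (adjusted p = 0.599 and 0.283), that of Mgst1 without WT library 2 (0.315), and all 3 with factors from genes of little intron. With no scaling beyond total UMIs, Mgst1 and Gsta4 also lost the call (0.141 and 0.0601). In these sums the 7 tuft markers came to 14769 CPM in GOF, against 7620, 7136 and 6639 CPM in WT, and the 8 epithelial markers to 14559 CPM, against 22334, 22170 and 21361 CPM. The 6 macrophage markers summed to 188 CPM, against 0, 7.4 and 28 CPM, with none at 0 in GOF and 6, 5 and 4 at 0 in WT; the part of these in the calls was not tested. In macrophage-like, monocyte-like, neutrophil-like and both endothelial-like classes Gstp1 was the only member called, of 3 to 7 tested.

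**Figure D3:**
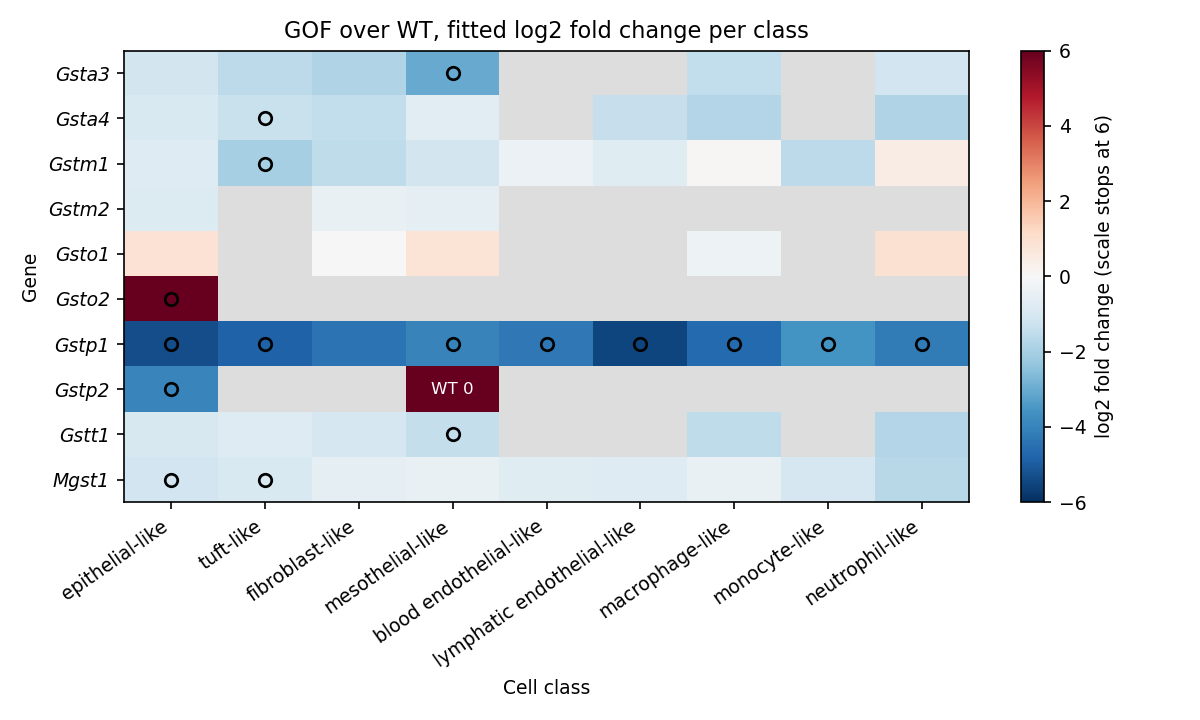
Fitted log2 fold change, GOF over WT, of the 10 members (rows) in 9 cell classes (columns), with the colour scale stopping at 6, circles on calls at an adjusted p under 0.05 and grey cells where counts were too low to test. Gstp1 is negative in all 9 classes, from -3.56 to -5.52, and Gstp2 is negative in epithelial-like and positive in mesothelial-like cells, where WT had 0 UMIs.

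The WT libraries show where the duct makes these enzymes without the mutation. Epithelial-like cells had the highest level of Gsta3, Gsta4, Gsto1 and Gstp1 among 9 classes. For Gsta3 they averaged 697 ± 87.3 CPM, against 208 ± 99.6 CPM in mesothelial-like cells, the next class (SD, n = 3 each). For Gsta4 they averaged 1257 ± 462 CPM, against 281 ± 53.5 CPM in mesothelial-like cells, and for Gsto1 287 ± 49.5 CPM, against 92.7 ± 26.5 CPM in macrophage-like cells. In these 3 genes the libraries of the first class did not overlap those of the next. Gstp1 was more even: 1137 ± 427 CPM in epithelial-like, 795 ± 489 in mesothelial-like, 595 ± 315 in tuft-like and 452 ± 260 CPM in fibroblast-like cells, and each of these neighbours overlapped. Low levels sit near those of lymphocyte-like cells, which held 37.8, 77.6 and 84.5 CPM of Gsta3 and 66.1, 155 and 84.5 CPM of Gsta4. These values rest on very few UMIs, from sums of 105862, 38647 and 11840 UMIs over 48, 30 and 12 cells.

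The mu genes and Mgst1 followed another order. Among the same 9 classes Gstm1 was highest in fibroblast-like cells (454 ± 257 CPM), ahead of epithelial-like cells (245 ± 59.7 CPM), with overlapping libraries. Gstm2 was highest in mesothelial-like cells (127 ± 55.7 CPM), next fibroblast-like (109 ± 40.2 CPM) and epithelial-like cells (60.5 ± 12 CPM), and these also overlapped. Muscle-like cells, left out of this order for their 8, 41 and 56 WT cells, had 508, 386 and 488 CPM of Gstm1 and 113, 103 and 173 CPM of Gstm2. Mgst1 had 1076, 909 and 890 CPM in epithelial-like cells, below the 1234, 1243 and 1611 CPM of mesothelial-like cells in the same libraries, where it was highest, though the test of this difference missed the threshold (adjusted p = 0.0599). Gstt1 had 138 CPM on average in epithelial-like cells and 207 CPM in mesothelial-like cells. Gsto2 was too sparse to test between WT classes. Gstm1 shares 23.1% of its 50-base transcript windows with other genes, but 0.887% of those in its last 500 bases.

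**Figure D4:**
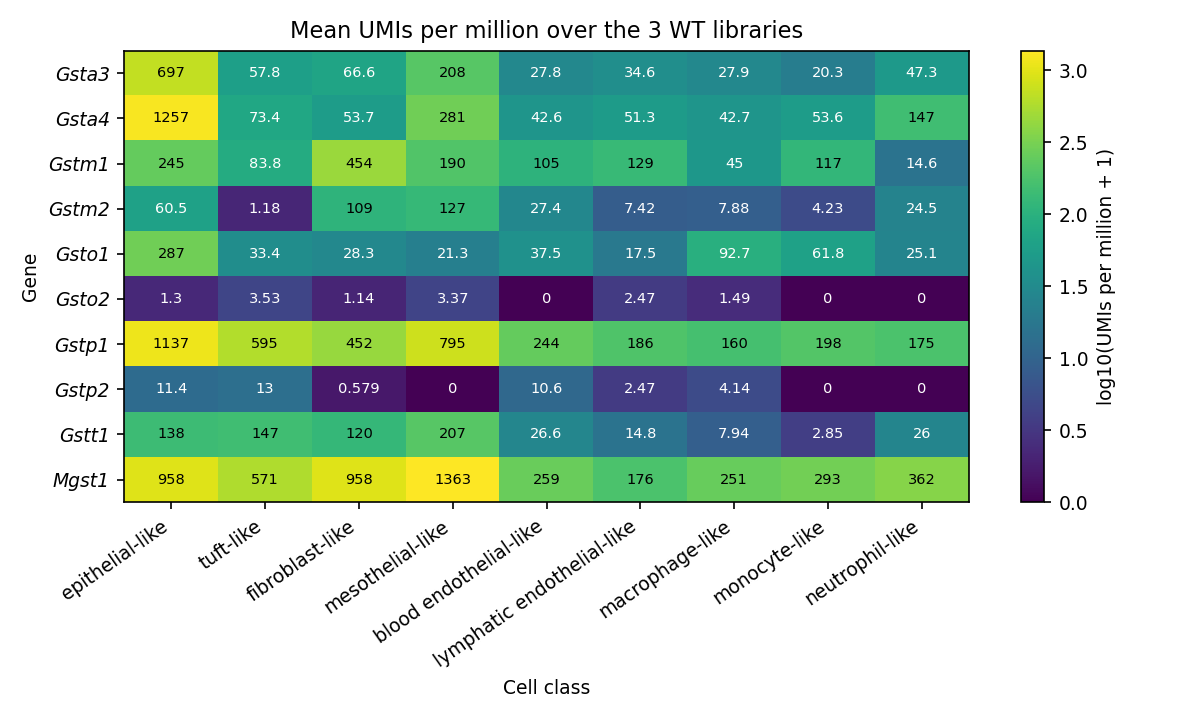
Mean CPM over the 3 WT libraries, as log10(value + 1), of the 10 members (rows) in 9 cell classes (columns). Gsta4 and Gstp1 are highest in epithelial-like cells, at 1257 and 1137, and Mgst1 in mesothelial-like cells.

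With the library as a block, WT epithelial-like cells were higher than fibroblast-like cells in 5 of 9 members tested and lower in none, where 16.4% of 12312 genes were higher and 16.5% lower. The log2 fold changes were 3.56 for Gsta3, 4.59 for Gsta4, 3.40 for Gsto1 and 1.56 for Gstp1 (adjusted p = 7.27e-06, 4.54e-06, 1.18e-05 and 0.00186). Gstp2, also among the 5, had a log2 fold change of 3.46, with 0, 3 and 0 UMIs in the fibroblast-like sums of WT libraries 1, 2 and 3. It passed the filter on low counts through the epithelial-like sums, so no p is given for it. Gstp1 lost the call without the block (adjusted p = 0.0849), and Gstp2 when classes came from clusters (0.156). The mu genes Gstm1 and Gstm2 were called lower in epithelial-like cells without WT library 2 (log2 fold change -1.10 and -1.01, adjusted p = 0.00665 and 0.00453) and with clusters (-1.56 and -1.24, adjusted p = 3.36e-05 and 0.000296), and Gstm2 also with no scaling (-0.78, adjusted p = 0.0457). Against mesothelial-like cells, epithelial-like cells were higher in 6 members and lower in 2, Gstm2 (log2 fold change -0.93) and Gstt1 (-0.49). Of all genes, 19.7% were higher and 18.9% lower. Gstp2, 1 of the 6, had no UMI in WT mesothelial-like cells. It entered the test through the epithelial-like sums alone, so no weight is put on its call. Without the block the calls of Gstp1, Gstm1 and Gstt1 were lost (adjusted p = 0.356, 0.25 and 0.14). With the block kept, the same 3 were lost without WT library 2 (0.0509, 0.379 and 0.123), Gstm1 and Gstt1 without library 3 (0.138 and 0.0764), and Gstm1 with no scaling (0.124). Against tuft-like cells of the same libraries, WT epithelial-like cells were higher in 7 of 9 members, where 14.1% of genes were. Gsta4 averaged 1257 CPM in epithelial-like and 73.4 CPM in tuft-like cells; Gstt1, with 138 CPM in epithelial-like and 147 CPM in tuft-like cells, was not called (adjusted p = 0.772). Epithelial-like cells were higher in 7 or 8 of 9 members against each endothelial and myeloid class. The shares of all genes that were higher were 15.9% against blood endothelial-like, 20.2% against lymphatic endothelial-like, 24% against macrophage-like, 15.5% against monocyte-like and 13.2% against neutrophil-like cells. In WT, Gstp2 had no UMI in monocyte-like and neutrophil-like cells. It had 3, 1 and 7 UMIs in blood endothelial-like, lymphatic endothelial-like and macrophage-like cells. Its tests against these classes rest on the epithelial-like sums. Gstm2 had 1 UMI in WT tuft-like, 1 in monocyte-like and 3 in lymphatic endothelial-like cells, and Gstt1 had 1 in monocyte-like cells. Those tests also rest on the epithelial-like sums, so no weight is put on their part in the counts of 7 or 8 members.

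Within WT epithelium, cells with the resting markers Car4 and Slc2a2 had less of 6 members than cells with neither, where 9.94% of 11517 genes were lower. Gstp1 had 406, 834 and 913 CPM in resting cells, against 743, 1805 and 1629 CPM in the others, lower in each of the 3 libraries (log2 fold change -1.09, SE 0.08, adjusted p = 2.67e-05). Gsto1 had 229, 179 and 203 CPM in resting cells, against 376, 354 and 223 CPM (log2 fold change -0.81, adjusted p = 0.00295). Gsta4 had 1164, 826 and 856 CPM, against 2036, 1209 and 1012 CPM (log2 fold change -0.68, adjusted p = 0.00156). Gsta3, Gstp2 and Mgst1 were lower by 0.27 to 0.86 on the log2 scale. The call of Mgst1 was lost with no scaling (-0.12, adjusted p = 0.254) and without WT library 1 or 2 (0.189 and 0.158), and that of Gstp2 without library 1 (-0.48, adjusted p = 0.523) and with no scaling (0.0515). Resting cells were 339, 148 and 28 in number, with 7014374, 3262715 and 497487 UMIs in all. The others were 1925, 1018 and 842 cells with 19322420, 5304125 and 3435330 UMIs. Cells were not thinned for this split, and resting cells held more UMIs per cell in each library. Deeper cells show markers more readily, and the part of depth in these calls was not tested. None of these 6 calls held when the library was left out of the model, Gstp1 having adjusted p = 0.282.

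Cells with at least 2 inflamed markers (Nos2, Cxcl5, Lcn2, Saa3) had more Gsto1 than cells with none, with 362, 335 and 277 CPM against 159, 139 and 206 CPM (log2 fold change 0.91, SE 0.17, adjusted p = 0.0273), where 1.59% of genes were higher. This was the only member called of 9, and the call was lost without WT library 1 (adjusted p = 0.131) or 2 (0.214) and without the block (0.342). In gland mucous cells 0 of 9 were called by edgeR, beside 1.33% of genes, with 3 at an unadjusted p under 0.05 and no other tool run. Neither split was thinned, and inflamed and gland mucous cells held more UMIs per cell than the cells with none in each library. Inflamed cells were 2200, 670 and 185 in number, with 30866222, 8059349 and 2509571 UMIs. Those with none were 315, 508 and 453, with 1361236, 1784133 and 1388392 UMIs. The part of depth was not tested. Cycling cells were too few in WT to test.

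Since the GOF library is labelled mosaic, its epithelial-like cells were split by the Wnt feedback targets, which holds library and gene reference constant. After thinning to 2000 UMIs, 1296 of 4406 cells had UMIs of at least 2 targets and 1981 had none. With 1 library there is no test, and ratios carry exact Poisson intervals for counting error. Gsta4 had 494 CPM in cells with 2 or more targets and 1025 CPM in cells with none, a ratio of 0.482 (0.452 to 0.513). Gstm1 went the other way, with 265 and 136 CPM and a ratio of 1.94 (1.73 to 2.18). Gsto1 had 507 and 775 CPM (ratio 0.655) and Gstt1 74.1 and 102 CPM (0.725). Of the members called between GOF and WT epithelium, Gsto2 had 88.7 and 107 CPM (0.833, 0.706 to 0.981) and Gstp1 30.9 and 39.9 CPM (0.774, 0.584 to 1.02). Mgst1 had 592 and 524 CPM (1.13, 1.06 to 1.21), and Gstp2 had no UMI in cells with 2 or more targets. The ratios of Gsta3 and Gstm2 were 1.11 and 1.31. Gstp1 stayed below the WT epithelial-like levels in both sets.

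Without thinning the ratios were 0.696 for Gsta4, 1.65 for Gstm1, 0.791 for Gsto1, 0.987 for Gsto2 and 1.08 for Gstp1, so that of Gstp1 lay on the other side of 1. In WT libraries 1, 2 and 3 the unthinned ratios were 0.543, 0.703 and 0.776 for Gsta4 and 1.43, 1.27 and 0.894 for Gstm1, so the order of both sets in GOF was also seen in WT, except for Gstm1 in library 3. Fewer than 20 thinned cells had 2 or more targets in each WT library. Between WT cells with at least 1 target and cells with none, the ratio for Gsta4 was 0.837, 0.751 and 0.982 in libraries 1, 2 and 3, beside 0.620 in the GOF library. For Gstm1 it was 0.968, 1.14 and 0.946 in WT, beside 1.60 in the GOF library. The WT intervals for Gstm1 all included 1.

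**Figure D5:**
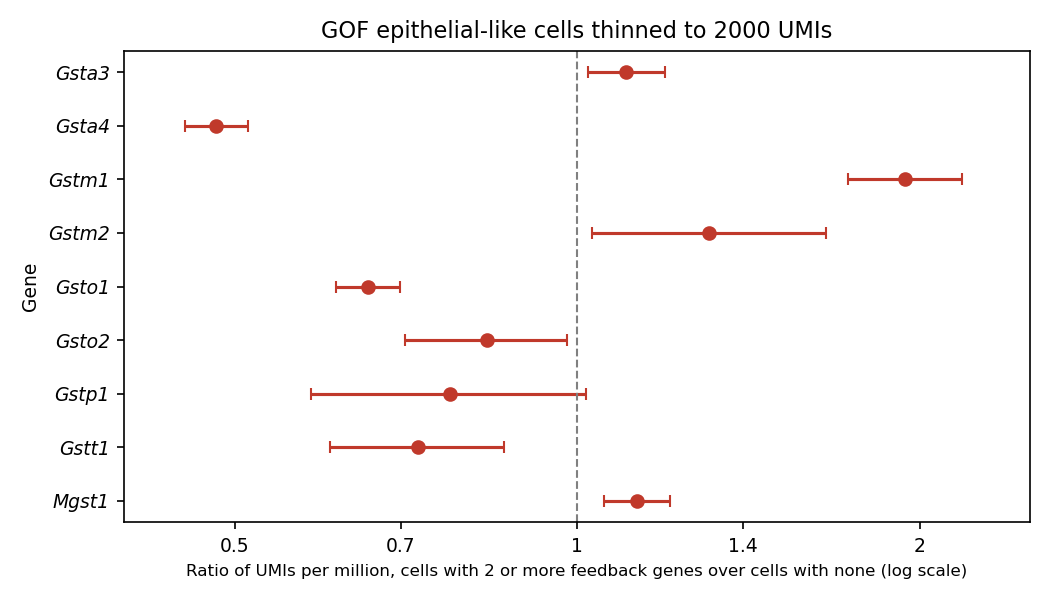
Ratio of CPM (log axis) between GOF epithelial-like cells with 2 or more Wnt feedback targets and those with none, after thinning to 2000 UMIs, for 9 members with exact Poisson intervals; the dashed line marks 1. Gstm1 lies at 1.94 and Gsta4 at 0.482, and the interval of Gstp1 includes 1.

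The rest of the family and its cofactor pathway were read from fixed lists. Of 16 other transferase genes tested in GOF epithelium, 0 were higher and 4 lower, where 11.6% of all genes were higher and 3.98% lower (Gstp3 log2 fold change -1.36, Gstm3 -3.54, Gstt3 -1.07, Gstt2 -0.95), with a median of -1.11, beside 0.0052 over all genes. Of 29 genes of glutathione supply and use, 0 were higher and 3 lower: Ggt6, a gamma-glutamyltransferase-like gene (-2.04), Glrx5, a mitochondrial glutaredoxin (-1.19), and Glo1, which removes methylglyoxal (-1.07). Gclc, the catalytic subunit of the rate-limiting enzyme of glutathione synthesis, had 121 CPM with TMM scaling in GOF, against 412, 209 and 362 CPM in WT, and was not called (adjusted p = 0.0748). Of 26 genes of the Nrf2 axis, Maff, a small Maf partner of Nrf2, was higher (1.52), and catalase (Cat, -1.49), the peroxidase Prdx1 (-1.50) and the reductase Akr1b8 (-1.07) were lower, 1 higher and 3 lower in all. In fibroblast-like cells none of the 8, 24 and 25 genes tested of the 3 lists was called by edgeR, the only tool run on them, where 2.54% of all genes were, and 0, 3 and 2 had an unadjusted p under 0.05.

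In macrophage-like cells 4 of 20 genes of glutathione supply and use were higher in GOF and 2 lower, and 3 of 22 Nrf2 axis genes were higher and none lower, where 7.51% of genes were higher and 2.01% lower. Slc7a11, the cystine importer that feeds glutathione synthesis, had 479 CPM with TMM scaling in GOF, against 5.64, 10.5 and 3.26 CPM in WT (log2 fold change 6.02, SE 0.49, adjusted p = 9.77e-05). Txnrd1, Nfe2l2 and Srxn1 had log2 fold changes of 2.69, 2.12 and 2.34, and the lower genes were Gpx3 (-3.47), a secreted peroxidase, and Abcc3 (-1.78), an export pump. The 6 macrophage markers summed to 5319 CPM in these GOF cells, against 18022, 8686 and 14060 CPM in WT, with none at 0; their part in the result was not tested. In the same cells Gsto1 had 76.6 CPM in GOF and 62.1, 110 and 106 CPM in WT, and was not called. The clusters holding most macrophage-like cells of the groups were different ones. In mesothelial-like cells 2 of 21 genes of glutathione supply and use were lower, Gpx3 (-2.53) and Oplah (-1.35), and 1 of 25 Nrf2 axis genes was higher, Bach1, a repressor of Nrf2 targets (1.42), where 9.41% of genes were higher and 2.88% lower.

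Across the 27 WT sums of 9 classes and 3 libraries, which share libraries and depth, the genes whose log2(CPM + 1) followed Gsta4 most closely of 6235 compared were Atp1b1, Wfdc2 and Tm9sf3 (Pearson r = 0.813, 0.803 and 0.794). Those nearest to Gstp1 were Clu, Tmc4 and Pdha1 (0.799, 0.770 and 0.765), and those nearest to Mgst1 were Tmem108, Meg3 and Tmem151a (0.831, 0.820 and 0.819).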

How the data were processed

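Single cells of mouse bile duct were profiled with 10x 3′ v3 chemistry in 1 GOF and 3 WT libraries. The deposited matrices hold UMI counts per gene and barcode, which the authors made with Cell Ranger (7.1, with mm10, per the submitters' processing notes); version 7.0.0 wrote the GOF matrix, with 32285 genes, and 3.0.2 the WT matrices, with 31053 genes, per the file headers. No source used here gives the annotation release or intron counting. The libraries held 113596685 UMIs in GOF and 43737469, 17358894 and 9558637 in WT, so lower levels are least precise in WT library 3; intervals cover counting error only. No pair of WT libraries agreed within sampling noise, and each pair of libraries shared 5 to 19 barcodes.

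Kept cells had 500 or more genes and no more than 25% of UMIs from mitochondria. Scrublet's own threshold marked 253, 0, 2 and 13 doublets, so the highest scores were left out at a rate of 0.8% per 1000 barcodes, 870, 228, 65 and 45 cells. A cell joined a class with at least 2 of its markers (3 for tuft) and a lead of 0.05 in score. Counts were summed per library and class over genes of both references and tested with edgeR 4.0.16 (quasi-likelihood, TMM, filterByExpr, Benjamini-Hochberg 0.05, R 4.3.3), with the lone GOF library assumed to vary like WT, and with the library as a block in WT and difference tests, since both classes come from the same library. DESeq2 1.42.0, limma 3.58.1, other scalings, gates and filters and left-out libraries were alternatives. The test was checked on simulated sums. Transcripts came from GENCODE M21 and promoters from RefSeq. Members and lists were chosen with earlier results of these data known. Named genes are the members, the list genes past the threshold in GOF epithelium (Gclc, Cfap43 and list genes named in other classes were chosen after their values were seen) and the 3 genes most like each of the 3 members with most WT UMIs.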

Additional observations from a re-analysis of the deposited data

Results flagged for a closer look

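For 5 results the GOF effect was called different between epithelial-like cells and another class in a test of the difference itself (edgeR, library as a block). Between epithelial-like and mesothelial-like cells the log2 difference was 1.94 for Gsta3 (SE 0.36, adjusted p = 8.94e-06), 5.74 for Gsto2 (SE 1.02, adjusted p = 2.48e-06) and -1.40 for Gstp1 (SE 0.34, adjusted p = 0.0023). For Gstp2 the fitted value was -16.77; with no UMI in WT mesothelium, and the filter on low counts passed there through GOF alone, neither this size nor its p supports a difference. Between epithelial-like and tuft-like cells it was 6.94 for Gsto2 (SE 1.67, adjusted p = 0.00559), where tuft-like cells held 4 UMIs in GOF and 3, 0 and 0 in WT; without WT library 1 the value was -3.07 (adjusted p = 1). Of all genes, 2.98% and 1.39% were called in either direction in these tests.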

How the results depend on the processing

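In GOF epithelium Gstp1, Gstp2 and Gsto2 kept direction and call in all 14 settings run, with log2 fold changes of -5.60 to -4.92, -4.13 to -3.55 and 5.70 to 6.65; 3 to 6 members were called. Calls over all genes there numbered 5122 with limma-voom and 998 to 3163 with a WT library left out, against 2463. For the difference between epithelial-like and fibroblast-like cells, 78 genes were called; DESeq2 gave 37, limma-voom 48, no filter 181, Leiden clusters 676 and left-out libraries 151 to 411. Members called there, 0 at first, were 1 with no filter, 3 with Leiden clusters (Gsta3 1.46, Gstm1 1.60, Gstp2 -3.70) and 1 to 1 with a library left out. Some values reversed in sign, and no reversed value was called. The difference of Gstt1 turned with limma-voom (-0.084) and without WT library 1 (-0.058) or 3 (-0.22), but not without library 2 (0.47). That of Gstm2 turned with Leiden clusters (0.18). Gstt1 between WT epithelial-like and fibroblast-like cells turned without WT library 2 (-0.11) and with Leiden clusters (-0.27), but not without library 1 (0.48) or 3 (0.66). The difference of Gsto2 between epithelial-like and tuft-like cells turned without WT library 1 (-3.07), but not without library 2 (7.74) or 3 (7.32). The causes were not tested. No paired analysis was possible because GOF has 1 library, so GOF against WT has no replicate block; in WT, leaving out the replicate block gave Gstp1 1.37 between epithelial-like and fibroblast-like cells (adjusted p = 0.0849). Cluster-based classes gave no value for mesothelial-like and tuft-like cells. Depth limits the WT classes with few cells.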
